A study of Homo sapiens with 4 samples.

Results

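miR-221 and miR-222 are a pair of microRNAs cut from one primary transcript of the X chromosome. They were taken from the array data by their mature-sequence accessions, MIMAT0000278 for miR-221 and MIMAT0000279 for miR-222. Both were found, so 2 of the 856 features of the chip are described. The chip was hybridized with total RNA of 4 established cell lines labelled as human oesophageal squamous cell carcinoma and named KYSE-520, KYSE-450, KYSE-890 and KYSE-960. The labels name no treatment, and all lines were grown in the same medium with 5% serum, and each gave 1 array, read in the single dye Hy5. One array per line leaves no spread to set a difference against, so no p-value or error is given.

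MicroRNAs are short RNAs that guide the silencing machinery to messenger RNAs, chiefly through pairing of the seed, bases 2 to 8 counted from the 5′ end. miR-221 and miR-222 are best known for repressing CDKN1B, which encodes the cell-cycle inhibitor p27Kip1, and the related inhibitor CDKN1C. They have been described as growth-promoting microRNAs in several carcinomas. Neither messenger RNA was measured on these arrays, so the data concern the levels of the microRNAs alone.

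The mature sequences are shown because both members carry the same seed, here in capitals. The accessions come with no arm. The strand long called miR-221 or miR-222 is the one on the 3′ side of the hairpin, and that sequence is printed from RefSeq (GRCh38.p14).

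hsa-miR-221-3p: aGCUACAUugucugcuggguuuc

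hsa-miR-222-3p: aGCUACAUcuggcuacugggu

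The sequences were identical over their first 8 bases and shared a further run of 6 bases, CUGGGU, towards the 3′ end. Set against each other from the 5′ end without gaps, 11 of 21 positions were the same. miR-221-3p has 23 bases, 47.8% of them G or C, and miR-222-3p has 21 bases with 52.4% G or C. Among 2370 mature names in the RefSeq table, these 2 were the ones with this seed. How far each probe on the chip also captured the other member was not tested.

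The hairpins are printed to show where each mature strand, in capitals, lies in its precursor.

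MIR221 hairpin: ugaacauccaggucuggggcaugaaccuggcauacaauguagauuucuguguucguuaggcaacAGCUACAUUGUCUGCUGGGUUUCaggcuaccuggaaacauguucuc

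MIR222 hairpin: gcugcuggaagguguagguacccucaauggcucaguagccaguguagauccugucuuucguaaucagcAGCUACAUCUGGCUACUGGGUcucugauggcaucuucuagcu

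Both hairpins are 110 bases long and lie on the minus strand of GRCh38.p14, MIR221 at chrX:45746157-45746266 and MIR222 at chrX:45747015-45747124. The interval between them is 748 bases. RefSeq places both inside the long noncoding RNA gene MIR222HG, at chrX:45745214-45770267. The MIR222 hairpin, the first of the pair to be transcribed, begins 23143 bases from the 5′ end of that gene.

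Both members gave signal in every line, and in the deposited intensities both were brightest in KYSE-520, followed by KYSE-450, KYSE-890 and KYSE-960. For miR-221, KYSE-520 gave 2062.5 intensity units, KYSE-450 gave 1127.5, KYSE-890 gave 310.5 and KYSE-960 gave 270.0. The first 2 of these lines were high and the other two low, a span of 7.64-fold. For miR-222, KYSE-520 gave 1224 units, KYSE-450 gave 670.0, KYSE-890 gave 356 and KYSE-960 gave 263. The lines fell in the same order over a narrower span of 4.65-fold.

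All 8 readings were above background. The threshold for this was the median of an array's features plus 3 times the SD of the values below that median, and it came to between 128 and 146 units. miR-221 stood over it by 14.1-fold on the KYSE-520 array, 8.38-fold on the KYSE-450 array, 2.42-fold on the KYSE-890 array and 2.08-fold on the KYSE-960 array. miR-222 stood over it by 8.37-fold on the KYSE-520 array, 4.98-fold on the KYSE-450 array, 2.78-fold on the KYSE-890 array and 2.03-fold on the KYSE-960 array. The readings of KYSE-890 and KYSE-960 were the ones nearest to background for both members.

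The arrays fell in the same order by summed intensity, so the deposited values alone do not show how a member changed against other microRNAs. The median of all features was close between arrays, at 85.5 units for KYSE-520, 78.75 for KYSE-450, 80.5 for KYSE-890 and 77.5 for KYSE-960. Over the 75 features above background on all 4 arrays, the median was 1064 units for KYSE-520, 785.5 for KYSE-450, 322.5 for KYSE-890 and 320.0 for KYSE-960. Of these 75 bright features, 23 (30.7%), both members included, placed the lines in the same order as miR-221 and miR-222. Whether the dimmer arrays held less microRNA or gave less signal for the same amount cannot be told apart. The lines were therefore also compared after quantile normalization, which gives every array the same distribution of values.

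After normalization the members no longer placed the lines in the same order, while the differences between lines were small. miR-221 came to 1135 units for KYSE-520, 810 for KYSE-450, 657 for KYSE-890 and 643 for KYSE-960, which kept the order of the lines and reduced the span to 1.76-fold. miR-222 came to 708 units for KYSE-520, 565.5 for KYSE-450, 770.5 for KYSE-890 and 608.5 for KYSE-960. KYSE-890 was now its highest line and KYSE-450 its lowest, with a span of 1.36-fold. The median span of the 75 bright features was 3.18-fold on this scale, with 62 of them spanning more than miR-221 and 71 more than miR-222. In the deposited values the median span was 2.86-fold, and 17 features spanned more than miR-221 and 30 more than miR-222. A milder correction for brightness sets equal the medians of the 184 features that reached the array median in every line. It gave spans of 4.33-fold for miR-221 and 2.64-fold for miR-222 against a median of 2.59-fold, with the lines in their deposited order for both members, so how narrow the spans are depends on the correction.

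**Figure D1:**
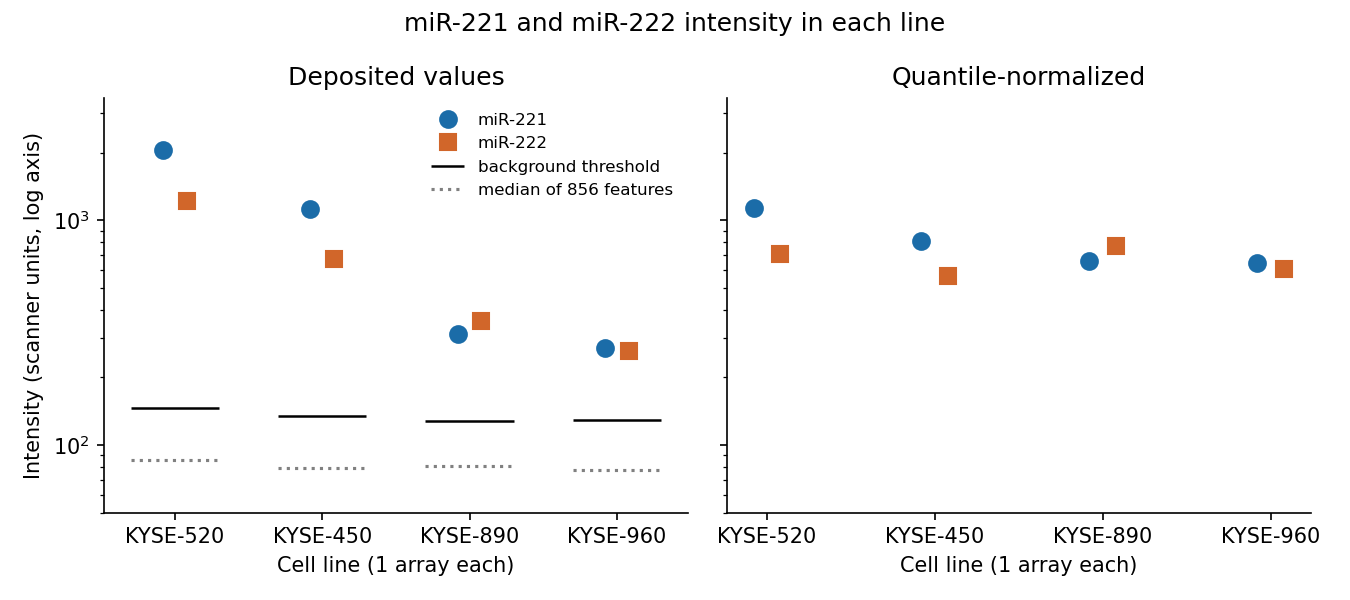
Intensity of miR-221 (circles) and miR-222 (squares) on the array of each line, in scanner units on a log axis, as deposited (left, with each array's background threshold and median) and after quantile normalization (right). Each point is 1 array; as deposited, both members are brightest in KYSE-520 and dimmest in KYSE-960, and after normalization all values lie between 565.5 and 1135 units.

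The rank of a feature on its array does not depend on any scaling that keeps the order of the features. With the brightest of the 856 features as rank 1, miR-221 held rank 26 for KYSE-520, 35 for KYSE-450, 44 for KYSE-890 and 45 for KYSE-960. Its place was highest in KYSE-520 and about equal in the 2 lines where it was dimmest. miR-222 held rank 41 for KYSE-520, 50 for KYSE-450, 37 for KYSE-890 and 47 for KYSE-960. Its highest place was in KYSE-890, the one line where it ranked above miR-221. The features above background numbered 150 for KYSE-520, 118 for KYSE-450, 95 for KYSE-890 and 94 for KYSE-960. Equal ranks on different arrays therefore stand for unequal places among the features with signal. Quantile normalization gives the arrays one distribution regardless of these numbers.

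**Figure D2:**
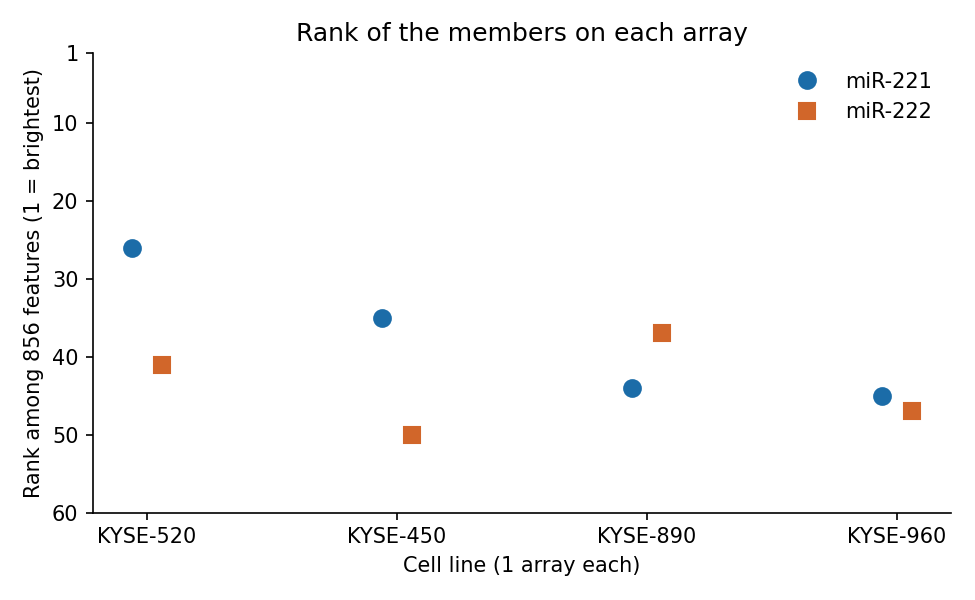
Rank of miR-221 (circles) and miR-222 (squares) by deposited intensity among the 856 features of each array, 1 being the brightest. miR-221 lies between rank 26 in KYSE-520 and rank 45 in KYSE-960, and miR-222 between rank 37 in KYSE-890 and rank 50 in KYSE-450.

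For miR-221, the deposited values passed a 2-fold difference in 4 of the 6 pairs of lines, those that set KYSE-520 or KYSE-450 against one of the dimmer arrays. KYSE-520 exceeded KYSE-890 by 6.64-fold and KYSE-960 by 7.64-fold, where 12.5% and 13.3% of the 713 analysed features were at least 2-fold higher in KYSE-520. KYSE-450 exceeded KYSE-890 by 3.63-fold and KYSE-960 by 4.18-fold, where 8.70% and 8.84% of features were at least 2-fold higher in KYSE-450. Most of the 713 features lay at background on some array. Of the 75 bright features, 44% to 52% passed 2-fold in these 4 comparisons, so a call alone did not set miR-221 apart from them. It lay in the upper part of their range, with 13 and 14 of the 75 showing a larger difference for KYSE-520 over KYSE-890 and over KYSE-960, and 15 and 19 for KYSE-450 over the same lines. Features at background on the KYSE-890 or KYSE-960 array, which can hold large differences of this kind, are left out of the 75. The place of miR-221 with those features included was not counted.

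miR-222 passed 2-fold in 3 of those pairs in the deposited values. KYSE-520 exceeded KYSE-890 by 3.44-fold and KYSE-960 by 4.65-fold, and KYSE-450 exceeded KYSE-960 by 2.55-fold. The difference of KYSE-450 over KYSE-890 was 1.88-fold. miR-222 lay nearer to the middle of the bright features than miR-221, with 28 and 23 of the 75 showing a larger difference for KYSE-520 over the dimmer arrays and 35 and 29 for KYSE-450. These places too hold within the 75 only. The median bright feature was 1.02 log2 higher in KYSE-520 than in either dimmer line, and for KYSE-450 it was 0.67 log2 above KYSE-890 and 0.86 log2 above KYSE-960.

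After quantile normalization neither member passed 2-fold in any of the 6 pairs, but this rested on the kind of correction. With the 75th percentiles of the 184 features equalized, again neither member passed in any pair. miR-221 then gave 0.91 and 0.93 log2 for KYSE-520 minus KYSE-890 and minus KYSE-960. With the medians of the 184 features equalized, miR-221 still passed in the same 4 pairs, at 1.86 and 2.11 log2 for KYSE-520 minus KYSE-890 and minus KYSE-960 and at 1.40 and 1.65 log2 for KYSE-450 minus the same lines, and miR-222 passed in 1 pair, KYSE-520 minus KYSE-960, at 1.40 log2. On that scale 36.0%, 37.3%, 34.7% and 38.7% of the 75 bright features were at least 2-fold higher in these 4 pairs. A call with medians equalized thus set neither member apart from them. The share of the 713 features past 2-fold after quantile normalization in either direction was 11.9% for KYSE-520 against KYSE-890, 12.2% for KYSE-520 against KYSE-960, 10.8% for KYSE-450 against KYSE-890 and 11.2% for KYSE-450 against KYSE-960. Among the 75 bright features it was 52%, 61.3%, 50.7% and 52% in these pairs. The normalized difference of miR-221 was 0.79 log2 for KYSE-520 minus KYSE-890 and 0.82 log2 for KYSE-520 minus KYSE-960. KYSE-450 exceeded the same lines by 0.30 and 0.33 log2. For miR-221 the direction was the same with and without normalization in all 4 pairs.

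For miR-222 the direction turned under quantile normalization in 3 of the 4, and stayed as deposited with the medians equalized, at 0.91 log2 for KYSE-520 minus KYSE-890 and at 0.45 and 0.94 log2 for KYSE-450 minus KYSE-890 and minus KYSE-960. Equalizing 75th percentiles instead, which multiplies the background too, turned the direction in the same 3 pairs. The differences were then -0.04 log2 for KYSE-520 minus KYSE-890, and -0.44 and -0.19 log2 for KYSE-450 minus KYSE-890 and minus KYSE-960. The quantile-normalized difference of miR-222 was -0.12 log2 for KYSE-520 minus KYSE-890, -0.45 log2 for KYSE-450 minus KYSE-890 and -0.11 log2 for KYSE-450 minus KYSE-960, where the deposited differences were 1.78, 0.91 and 1.35 log2. For KYSE-520 minus KYSE-960 it was 0.22 log2, against 2.22 log2 as deposited. The bright features as a group moved the same way, with a median normalized difference of -0.61 log2 for KYSE-520 minus KYSE-890 and -0.77 log2 for KYSE-520 minus KYSE-960. These features had to be above background on the dimmer arrays, where fewer features were. That filter favours features placed high on KYSE-890 and KYSE-960, so these medians give no independent standard for miR-222.

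Between the 2 brighter arrays, and between the 2 dimmer ones, the members differed by less than 2-fold on either scale. For KYSE-520 minus KYSE-450, where 2.81% of the 713 features differed by at least 2-fold after normalization, miR-221 gave 0.87 log2 as deposited and 0.49 log2 after normalization. miR-222 gave 0.87 and 0.32 log2. The median bright feature gave 0.41 log2 as deposited, so both members exceeded it in KYSE-520. For KYSE-890 minus KYSE-960, where 5.05% of features differed by at least 2-fold after normalization, miR-221 gave 0.20 and 0.03 log2 and miR-222 gave 0.44 and 0.34 log2.

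**Figure D3:**
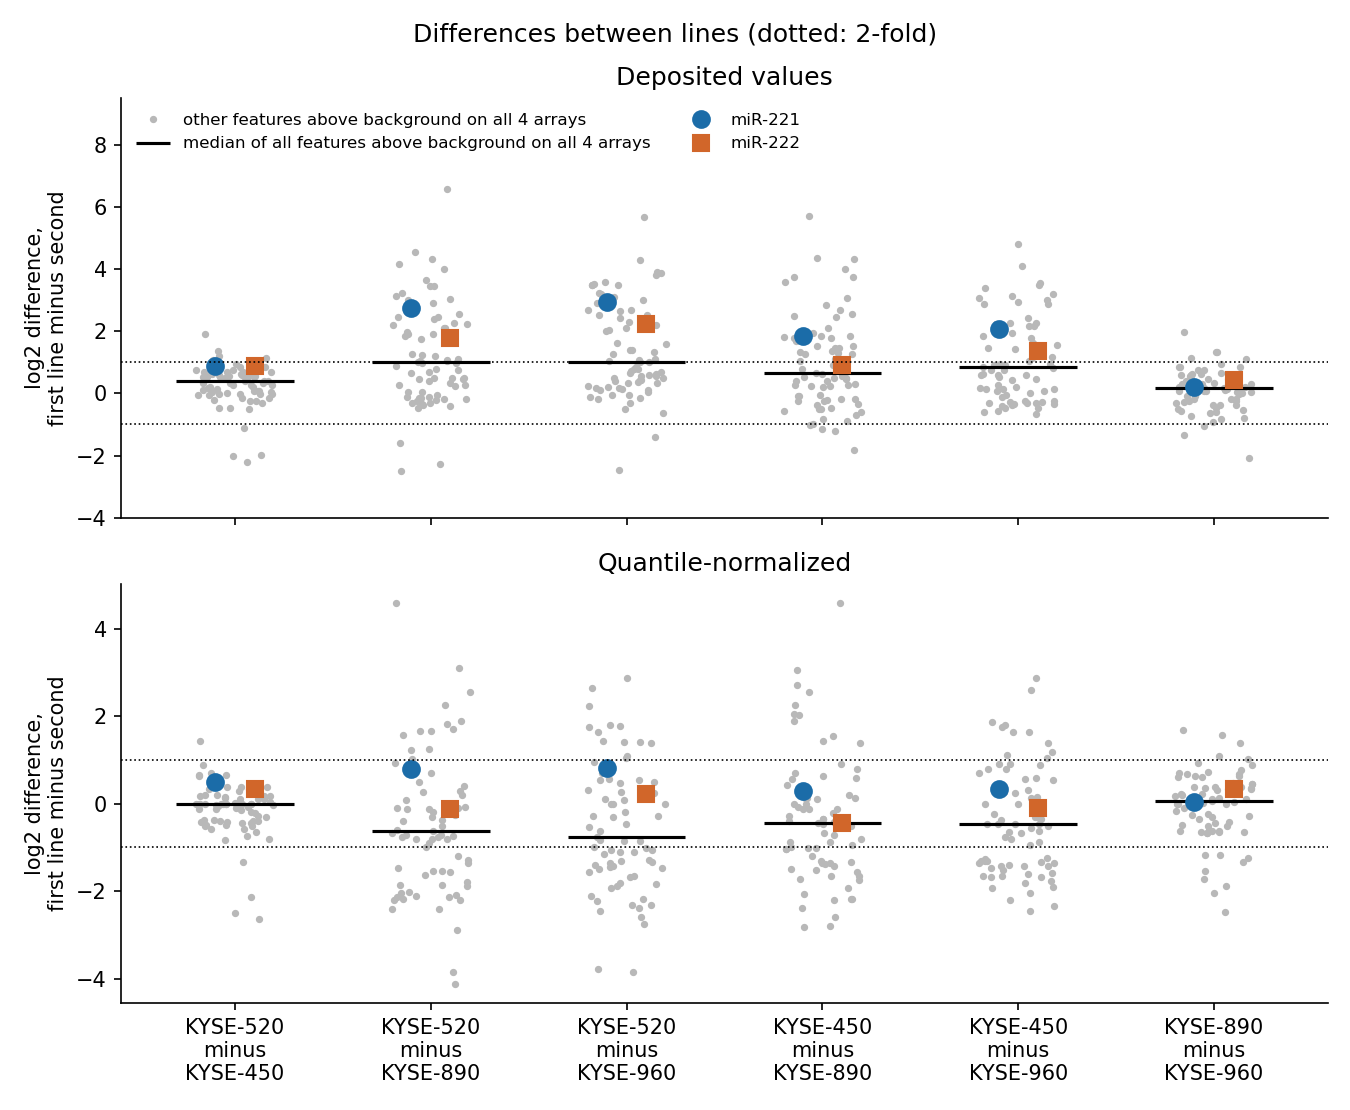
Log2 difference between the lines of each of the 6 pairs, first line minus second, in the deposited values (top) and after quantile normalization (bottom). Circles are miR-221, squares miR-222, grey points the other features above background on all 4 arrays and bars the median of all 75 such features; both members lie above the bar in the 4 deposited comparisons of KYSE-520 or KYSE-450 with a dimmer array, and neither passes 2-fold (dotted lines) after quantile normalization.

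The level of miR-221 relative to miR-222 on the same array does not change under any multiplicative scaling. The size of such a ratio reflects the probes as well as the RNAs, so only its change between lines was compared. The deposited ratio was 1.69 for KYSE-520, 1.68 for KYSE-450, 0.872 for KYSE-890 and 1.03 for KYSE-960. It was nearly equal in the first 2 lines and lower in the other two. The ratio of KYSE-520 was 1.93-fold that of KYSE-890 and 1.64-fold that of KYSE-960, and KYSE-450 gave the same values to the digits shown. In the deposited values miR-221 thus differed more between the brighter and the dimmer arrays than miR-222, the other product of their shared transcript, did.

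The shift was as large with the background taken off. With the array median subtracted from each intensity the ratio was 1.74 for KYSE-520, 1.77 for KYSE-450, 0.835 for KYSE-890 and 1.04 for KYSE-960. Quantile normalization gave 1.60 for KYSE-520, 1.43 for KYSE-450, 0.853 for KYSE-890 and 1.06 for KYSE-960. Under all 3 treatments both of the brighter arrays had a higher ratio than both of the dimmer ones. Of the 2 dimmer arrays, KYSE-960 had the higher ratio under all 3 treatments. Of the 2 brighter ones, KYSE-520 exceeded KYSE-450 after quantile normalization and lay below it with the array median subtracted. With 1 array per line, these smaller differences have no spread to be set against. The part of brightness in the ratio was not tested.

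**Figure D4:**
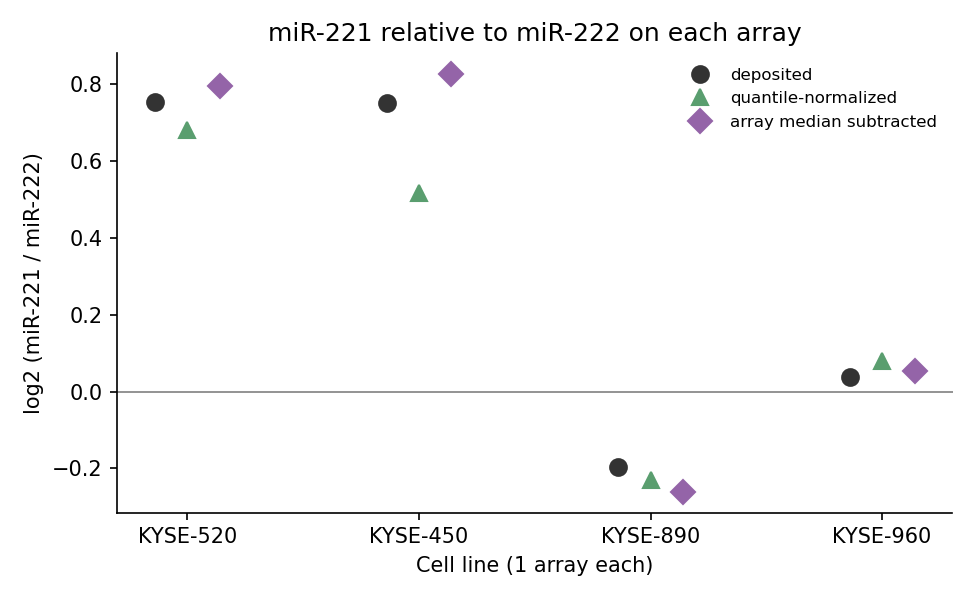
Log2 ratio of miR-221 to miR-222 on the array of each line, from the deposited intensities (circles), after quantile normalization (triangles) and with the array median subtracted (diamonds). The deposited values lie at 0.75 in both KYSE-520 and KYSE-450, at -0.20 in KYSE-890 and at 0.04 in KYSE-960.

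Likeness between profiles over the 4 lines was measured as the root mean square difference between log2 values, each feature centred on its own mean. For miR-221 and miR-222 this distance was 0.36 log2 after normalization, against a median of 0.83 over the 2775 pairs of the 75 bright features, and 12.1% of pairs were closer. In the deposited values it was 0.42 against a median of 0.84, and 18.7% were closer. The range over lines of the deposited miR-221 to miR-222 ratio was 0.95 log2, while the median range over all pairs was 2.12. All pairs share the same 4 arrays, so these values describe the arrays and test nothing. The distance also grows with the span of a profile, so features with small spans lie close whatever their order of lines. After normalization 62 of the 75 features spanned more than miR-221 and 71 more than miR-222. Their small normalized distance therefore shows no likeness beyond that of small spans.

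Several features had profiles nearer to each member than the members had to each other. After normalization miR-222 stood at place 11 in likeness to miR-221, and miR-221 at place 17 in likeness to miR-222. The feature closest to miR-221 was MIMAT0000069, at 0.12 log2 after normalization and 0.07 in the deposited values, where it was also the closest. KYSE-520 gave 3288 units for it, KYSE-450 gave 1962, KYSE-890 gave 560 and KYSE-960 gave 438, high and low in the same lines as miR-221. The next was MIMAT0000420 at 0.23 log2. The feature closest to miR-222 was MIMAT0000082, at 0.05 log2, for which KYSE-520 gave 1453.5 units, KYSE-450 gave 972, KYSE-890 gave 386.5 and KYSE-960 gave 315.5. MIMAT0000703 followed at 0.09 log2. Place 4, at 0.18 log2, was held by a feature with the same normalized value, 60821 units, on every array. Nearness to miR-222 on this scale thus also reflects a small span. In the deposited values MIMAT0000420 was the closest to miR-222, at 0.14 log2, before MIMAT0000082 at 0.15. The table pairs no names with these accessions.

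For the same reason other microRNAs known to repress the inhibitors CDKN1A and CDKN1C, other pairs cut from one primary transcript, and markers of squamous epithelium and of other tissues were not analysed here. The cell type given in the labels was therefore not checked against its markers.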

How the data were processed

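Each deposited value is an intensity in linear scanner units, with a row for each of 856 features and a column for each array. Total RNA (500 ng) was labelled with Hy5 and hybridized for 16 h at 32 °C, per the labels' protocols. The authors' treatment of spots, background and scaling is not given in the sources used here. Every intensity was a multiple of 0.5.

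Arrays were quantile-normalized on the linear scale with limma 3.58.1 in R 4.3.3. Values under the array median were raised to it, and the 713 features reaching it on at least 1 array were kept. Differences are log2 values of the first line minus the second, called at 2-fold. No test was made, and the number of arrays, 4, limits the precision. The code was tested on simulated data with planted changes, and a pass was required for the unscaled values only. The simulated arrays had no overall difference in brightness, so the test did not cover that trait of these arrays. The members and lists were chosen with earlier results of these data known. Named features are both members and, as no names were available, 2 of the 5 closest to each. The ratio between the members was added after seeing the data. Other scalings, floors, background corrections, thresholds and sets of lines were tried as alternatives.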

Additional observations from a re-analysis of the deposited data

How the results depend on the processing

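Counts and differences refer to quantile-normalized values unless stated, and no cause was tested. No paired analysis was possible because no line had a second array. Dropping the floor, or raising it to the background threshold, cannot change the members, whose readings all lie above both, so these settings are not counted for them. Of 48 alternative values of the miR-221 differences between lines, 0 changed sign and 8 passed 2-fold. Of 48 for miR-222, 6 changed sign and 2 others passed 2-fold. All of these came from the deposited values and from equalizing the medians of the 184 features that reached the array median everywhere. Apart from equal 75th percentiles, the other alternatives were again quantile-normalized, so they are no separate check on that scaling. For KYSE-520 minus KYSE-890, KYSE-520 minus KYSE-960, KYSE-450 minus KYSE-890 and KYSE-450 minus KYSE-960, the deposited differences were 2.73, 2.93, 1.86 and 2.06 log2 for miR-221 and 1.78, 2.22, 0.91 and 1.35 log2 for miR-222, so that 4 and 3 pairs passed 2-fold. With medians equalized they were 1.86, 2.11, 1.40 and 1.65 for miR-221 and 0.91, 1.40, 0.45 and 0.94 for miR-222, and 4 and 1 pairs passed. Of the 75 bright features, 44% to 52% were at least 2-fold higher in these pairs as deposited, and 34.7% to 38.7% with medians equalized. At a 1.5-fold threshold miR-221 passed in 2 pairs, KYSE-520 against KYSE-890 and against KYSE-960. The share of all features past 1.5-fold was not counted. Among the 75 bright features, 52% and 61.3% passed even 2-fold in these pairs, in either direction. Of the 5 features closest to miR-221, 1 was retained in the deposited values and 1 when features above background on at least 1 array were eligible. For miR-222 these were 2 and 3. The range of the miR-221 to miR-222 ratio stayed within 1.5 times under each alternative run, also without any one line.

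Counts of all features at or past 2-fold moved by more than 1.5 times in 23 of 66 alternative values. In the deposited values they were 36 for KYSE-520 against KYSE-450 and 12 for KYSE-890 against KYSE-960. With medians equalized they were 171 for KYSE-520 against KYSE-890 and 14 for KYSE-890 against KYSE-960. Equal 75th percentiles, which multiply the background too, gave 634 and 641 for KYSE-520 against the dimmer lines KYSE-890 and KYSE-960, 630 and 643 for KYSE-450 against them, and 12 between them. Subtracting the array median with a floor of 16 before normalization gave 172 and 179 for KYSE-520 against the dimmer lines, 163 and 163 for KYSE-450, 131 between them, and 74 for KYSE-520 against KYSE-450. Between the dimmer lines the count was 56 with no floor and 22 with the background threshold as floor. At 4-fold the 6 counts were 4, 37, 27, 30, 15 and 3. Signal near background limits the values of both members in KYSE-890 and KYSE-960.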
